A study of Mus musculus with 9 samples.

Results

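The thyroid lineage transcription factors Pax8, Nkx2-1, Foxe1, Hhex and Glis3 were read in RNA-seq libraries of whole mouse thyroid. They were picked by gene symbol from a table of read counts, as 5 of its 33924 genes, and 5 of 5 passed the filter on low counts that left 17079 genes for testing. The study compared thyroids without a subunit of the chromatin remodelling complex SWI/SNF with wild-type thyroids. The 9 libraries fall into 3 genotype groups of 3, labelled Smarcb1 KO, Arid2 KO and wild type, Smarcb1 being part of the complex core and Arid2 a subunit found in its PBAF form. The table is named as the non-Braf one, and no other allele, agent, Cre driver, age or sex is given for any group. Nothing says that each library is from its own animal, so p-values speak for the variation among these libraries alone, which may be technical.

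Pax8 is a paired-box factor and Nkx2-1 a homeobox factor, and in thyroid follicular cells both bind the promoters of the hormone production genes and hold the cells in their differentiated state. Foxe1 is a forkhead factor needed for the thyroid bud to migrate and for thyroid hormone genes to be transcribed, and Hhex is a homeobox factor that keeps the bud growing. Glis3 is a zinc-finger factor that acts downstream of thyrotropin in hormone synthesis. Nkx2-1 also drives surfactant genes in lung, so its targets depend on the tissue.

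The libraries hold 33666251 to 89553766 counts each, and Tg, the gene of thyroglobulin, the hormone precursor, takes 24.1% to 30.8% of them. Depth went with group, at 61179297 to 89553766 counts in Arid2-labelled, 38644867 to 41362640 in Smarcb1-labelled and 33666251 to 34045321 in wild-type libraries. Smarcb1 stood at 47.5, 53.7 and 59.4 CPM (read counts scaled to library size by TMM) in Smarcb1-labelled thyroids, against 65.9, 71.7 and 69.2 CPM in wild type, which gave a log2 fold change of -0.36 and missed the threshold (adjusted p = 0.0651, edgeR's quasi-likelihood test). Arid2 stood at 94.4, 77.7 and 59.9 CPM in Arid2-labelled thyroids, against 68.8, 74.9 and 67.8 CPM in wild type, so its transcript was not lower there and the groups are called by their labels. Thymocyte markers summed to 150.6 CPM in Smarcb1-labelled replicate 2 and 991 CPM in Arid2-labelled replicate 1, and to at most 3.27 CPM elsewhere. Parathyroid markers summed to 6105 to 17002 CPM in Smarcb1-labelled thyroids, 10.8 to 1586 CPM in the Arid2-labelled ones and 8.33 to 4329 CPM in wild type. In Smarcb1-labelled replicate 3, Xist (the X-inactivation RNA) reached 809 CPM and Ddx3y on the Y chromosome had 0 counts, while the other 8 had at most 2.59 CPM of Xist.

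Foxe1 transcript was low in the Smarcb1-labelled thyroids. It stood at 44.7, 61.7 and 50.8 CPM in Smarcb1-labelled thyroids, at 117.7, 147.1 and 173.4 CPM in Arid2-labelled thyroids and at 240.5, 278.4 and 200.9 CPM in wild type. The groups averaged 52.4 ± 8.64, 146.1 ± 27.9 and 239.9 ± 38.8 CPM in that order (SD, n = 3 each), and no library of one group reached the range of another. Every Smarcb1-labelled library lay below every Arid2-labelled one, and every Arid2-labelled one below every wild-type one, an order that 1.22% of all tested genes had. An exact permutation test over the 3 groups gave p = 0.00357, the smallest that 280 splits of 9 libraries can give.

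Foxe1 fell in Smarcb1-labelled thyroids against wild type, to 21.9% of the wild-type level. The log2 fold change was -2.19 (SE 0.19, 95% interval -2.63 to -1.76, adjusted p = 0.00102 in edgeR's quasi-likelihood test over all genes), and 5.74% of all tested genes were called lower in this comparison at an adjusted p under 0.05. Foxe1 was the gene with the 15th smallest p. By size of fall it came 53rd of the 981 genes called lower, and 4th of the 42 among these that were at least as abundant. The call held in all 20 alternative settings, among which are the 9 fits without 1 library.

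Foxe1 also fell in Smarcb1-labelled thyroids against the Arid2-labelled ones, by a log2 fold change that came to -1.48 (SE 0.19, adjusted p = 0.00470), where 9.32% of all tested genes were called lower; its groups did not overlap there, like those of 20.5% of all tested genes in that direction. In the Arid2-labelled libraries against wild type, the log2 fold change of Foxe1 was -0.72 (SE 0.18, 95% interval -1.13 to -0.30), and the adjusted p of 0.122 missed the threshold; 0.322% of all tested genes were called lower there. Foxe1 was one of 2 factors, with Nkx2-1, whose Arid2-labelled libraries lay wholly below wild type, as they did for 12.6% of all tested genes. The DESeq2 Wald test called Foxe1 in this comparison (log2 fold change -0.73, adjusted p = 0.00973). Both comparisons with wild type share the same 3 wild-type libraries.

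**Figure D1:**
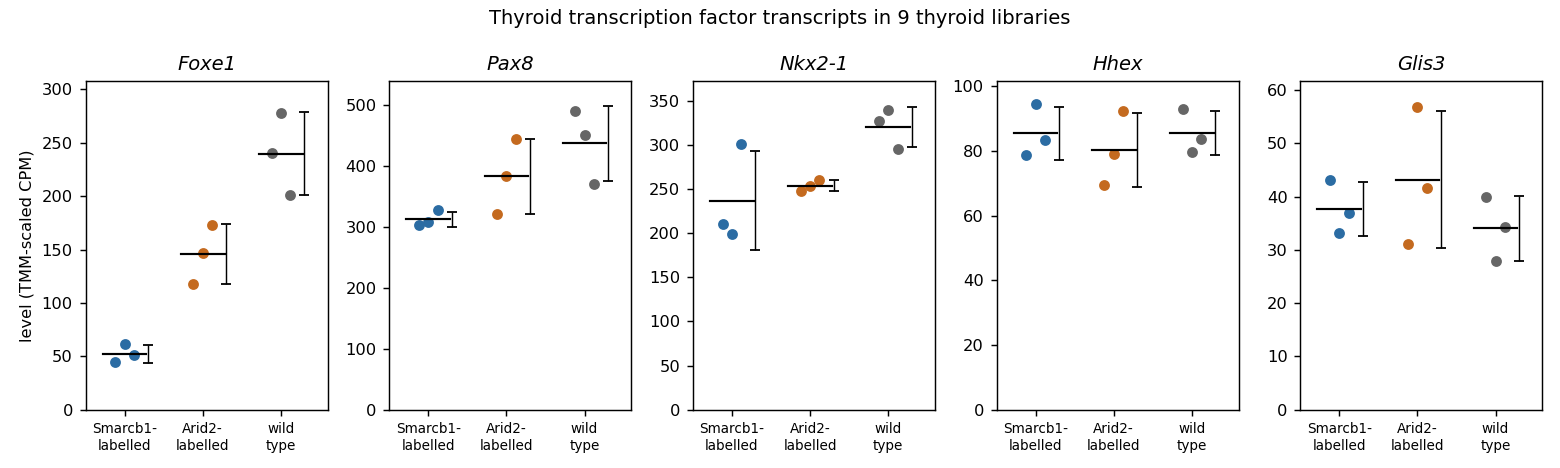
Level of each factor in TMM-scaled CPM, 1 point per library, with the mean of the 3 libraries as a line and the SD as a bar, for Smarcb1-labelled, Arid2-labelled and wild-type thyroids. The Foxe1 groups stand apart from each other at 52.4, 146.1 and 239.9 CPM, while the Hhex and Glis3 groups overlap.

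Foxe1 is rich in G and C, and such genes were lower as a group in Smarcb1-labelled thyroids. The longest annotated transcript of Foxe1 has 62.8% GC, more than 99.0% of the tested genes. Over 397 genes within 2 points of that content, the median log2 fold change was -0.77 in Smarcb1-labelled over wild type and 34.5% of them were called. Of these 397 genes, 8 (2.02%) lay below Foxe1. In Smarcb1-labelled over Arid2-labelled the median was -0.82, with 53 genes below Foxe1, and in Arid2-labelled over wild type it was 0.001, with 24 below.

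The trend over GC content was also fitted in each library and removed. At the GC content of Foxe1 the fitted trend was -0.89, -0.26 and -0.60 log2 units in Smarcb1-labelled thyroids, 0.21, 0.19 and 0.44 in Arid2-labelled thyroids, and 0.29, 0.37 and 0.25 in wild type. With the trend removed, Foxe1 stood at 82.7, 73.8 and 77.0 CPM in Smarcb1-labelled thyroids, 101.9, 129.3 and 128.2 CPM in Arid2-labelled thyroids, and 196.9, 214.8 and 168.8 CPM in wild type. The 3 groups still did not overlap. The log2 fold change then was -1.31 (SE 0.13, adjusted p = 0.00248) in Smarcb1-labelled over wild type, -0.62 (adjusted p = 0.0275) in Smarcb1-labelled over Arid2-labelled and -0.69 (adjusted p = 0.0417) in Arid2-labelled over wild type, so Foxe1 passed in 3 of 3 comparisons. The fall against wild type was thus smaller by this correction and was still called.

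**Figure D2:**
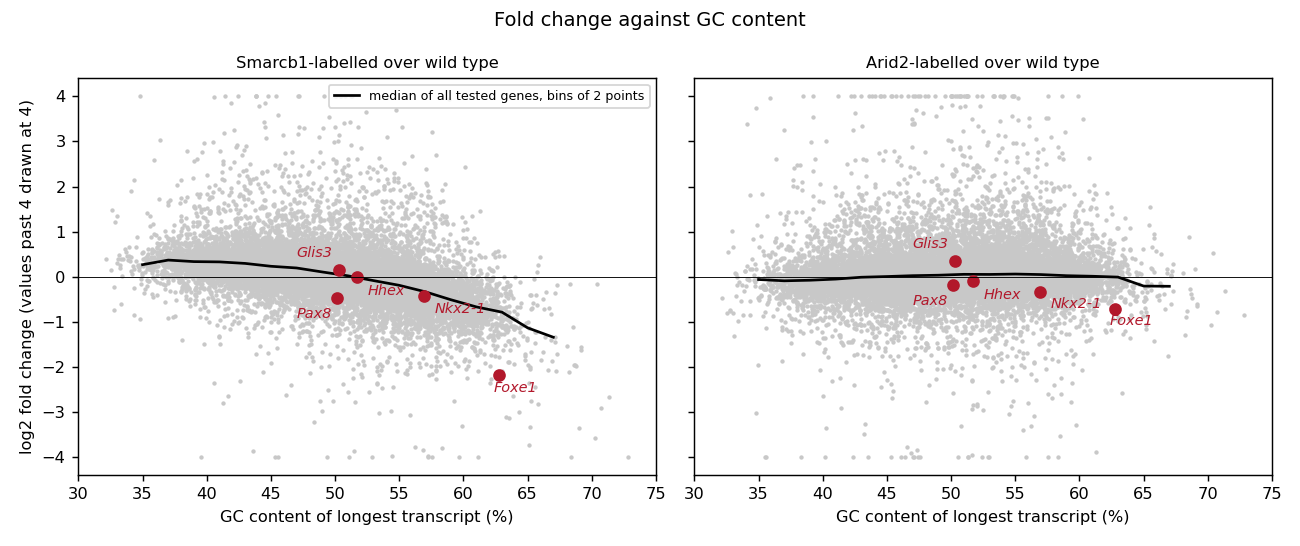
Log2 fold change of every tested gene (grey) against the GC content of its longest transcript in percent, with the 5 factors in red and the median over bins of 2 points as a line, for Smarcb1-labelled and Arid2-labelled over wild type. The line descends with GC content in the Smarcb1-labelled panel, where Foxe1 lies at -2.19 and the median of its neighbours in GC content at -0.77.

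Levels of markers of other cells were read beside Foxe1. Summed epithelial markers stood at 1085 to 1380 CPM in Smarcb1-labelled thyroids, 1130 to 1252 CPM in the Arid2-labelled ones and 1217 to 1331 CPM in wild type, so these ranges overlap. In Smarcb1-labelled over wild type edgeR called 0 of these 5 markers, with 2 at an unadjusted p under 0.05, limma-voom 0 and DESeq2 1. The 2 were Krt7, lower (log2 fold change -0.90, edgeR adjusted p = 0.0638), which DESeq2 called, and Cdh1, higher (0.24, adjusted p = 0.159). By edgeR's p, Nkx2-1 at 0.0208 ranked 3218th of all 17079 tested genes in this comparison, and DESeq2 called 2782 of all genes. Markers of some other cells did pass the edgeR test there, where 2.15% of all tested genes were called higher and 5.74% lower. Of 8 endothelial markers, Emcn (log2 fold change 0.58) and Tek (0.61) were called higher, and the list summed to 492.3 to 781.0 CPM in Smarcb1-labelled thyroids and 448.7 to 631.9 CPM in wild type. Of 6 fibroblast markers, Col1a1 (-1.06) and Col1a2 (-0.57) were called lower. Col3a1 (-0.55), Dcn (-0.03), Pdgfra (0.02) and Lum (0.31) were not called. The fibroblast list summed to 1763 to 2402 CPM in Smarcb1-labelled thyroids and 2423 to 2725 CPM in wild type. Of 4 erythroid markers, Hba-a1 (-4.01) and Hbb-b1 (-2.51) were called lower, with sums of 94.3 to 184.4 CPM in Smarcb1-labelled thyroids and 289.1 to 1395 CPM in wild type. Of 5 cartilage markers 3 were tested. Lect1 (5.49) was called higher, and Acan (3.70) and Comp (-0.60) were not called. The list summed to 7.28 to 181.8 CPM in Smarcb1-labelled thyroids and 2.43 to 3.56 CPM in wild type. Nearly all of the Smarcb1-labelled sums was Lect1 alone, at 181.4, 6.08 and 112.5 CPM. The untested Col2a1 and Matn1 had at most 7 counts in a Smarcb1-labelled library. The part of these cells in the Foxe1 result was not tested. With a covariate of parathyroid markers the log2 fold change of Foxe1 in Smarcb1-labelled over wild type was -2.20 (adjusted p = 0.00708), without both libraries with thymocyte markers it was -2.38 (adjusted p = 0.00251), and without Smarcb1-labelled replicate 3 it was -2.17 (adjusted p = 0.00984). In whole tissue, fewer cells of a type and less RNA per cell cannot be told apart.

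Pax8 stood at 303.6, 307.4 and 327.1 CPM in Smarcb1-labelled thyroids, 321.3, 383.2 and 445.0 CPM in Arid2-labelled thyroids and 490.5, 451.6 and 369.9 CPM in wild type. The Smarcb1-labelled libraries lay close together and wholly below wild type, which was so of 16.7% of all tested genes, while the Arid2-labelled libraries overlapped with both. The log2 fold change in Smarcb1-labelled over wild type was -0.48 (SE 0.15, 95% interval -0.82 to -0.15), and the adjusted p of 0.0763 missed the threshold. DESeq2 called it (log2 fold change -0.50, adjusted p = 0.0165). Over Arid2-labelled the Smarcb1-labelled value was -0.29 (SE 0.15, adjusted p = 0.187), and Arid2-labelled over wild type gave -0.19 (SE 0.15, adjusted p = 0.598). The exact permutation test over the 3 groups gave p = 0.0607 for Pax8.

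Nkx2-1 stood at 210.7, 198.8 and 300.9 CPM in Smarcb1-labelled thyroids, 247.7, 253.4 and 260.1 CPM in Arid2-labelled thyroids and 326.9, 339.1 and 295.1 CPM in wild type. Smarcb1-labelled replicate 3, the library with Xist, was inside the wild-type range, and the other 2 of its group were the lowest of all. The log2 fold change in Smarcb1-labelled over wild type was -0.44 (SE 0.16, adjusted p = 0.111). It was -0.65 and was called without replicate 3 (adjusted p = 0.0385), and it was called by DESeq2 with all libraries (-0.46, adjusted p = 0.0438). With the GC trend removed it was -0.11 (adjusted p = 0.817), the transcript of Nkx2-1 having 56.9% GC. In Arid2-labelled over wild type the log2 fold change was -0.34 (SE 0.16, 95% interval -0.69 to 0.02, adjusted p = 0.358), although the 3 Arid2-labelled libraries lay below the 3 wild-type ones. The exact permutation test over the 3 groups gave p = 0.118. Nkx2-1 is also made by the C cells of the thyroid, whose markers summed to 7279 to 9227 CPM in Smarcb1-labelled thyroids, 2738 to 3338 CPM in the Arid2-labelled ones and 1938 to 9711 CPM in wild type; their part in the level was not tested.

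Sequence before the transcription start is shown for Pax8 and Nkx2-1, whose levels over the 9 libraries were the most alike of any pair of the factors. The windows are the 250 bases upstream of the start as RefSeq gives it on GRCm38.p6, at chr2:24475600-24475849 for Pax8 and chr12:56536909-56537158 for Nkx2-1, both on the minus strand and read 5′ to 3′ toward the gene. Capitals mark CAAG, the core of the Nkx2-1 binding motif, and its reverse complement CTTG.
Pax8: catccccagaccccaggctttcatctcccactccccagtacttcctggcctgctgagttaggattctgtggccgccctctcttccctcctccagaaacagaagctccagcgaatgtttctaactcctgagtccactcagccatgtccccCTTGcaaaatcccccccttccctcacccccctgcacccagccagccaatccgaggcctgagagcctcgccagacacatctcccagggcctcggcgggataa
Nkx2-1: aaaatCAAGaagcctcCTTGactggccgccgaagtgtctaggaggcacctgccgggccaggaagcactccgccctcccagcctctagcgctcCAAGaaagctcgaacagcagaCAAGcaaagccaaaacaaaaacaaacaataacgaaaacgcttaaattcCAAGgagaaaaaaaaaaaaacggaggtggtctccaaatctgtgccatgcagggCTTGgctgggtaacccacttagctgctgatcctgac
The Pax8 window holds 1 match and the Nkx2-1 window 6. Windows of the same length at 32851 starts hold at least 1 match in 86.6% of cases, with a median of 2, so a match is common and is a description, not a binding site. The Glis3 window holds 1 match and the Hhex window 0. GC content was 60.4% in the Pax8 window and 50.8% in that of Nkx2-1, against 76.0% for Hhex, 75.6% for Glis3 and a median of 52.4% over all windows.

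Hhex did not differ beyond the spread between libraries. It stood at 78.7, 94.6 and 83.3 CPM in Smarcb1-labelled thyroids, 69.3, 79.1 and 92.4 CPM in Arid2-labelled thyroids and 93.1, 79.7 and 83.7 CPM in wild type, and the 3 groups overlap. The log2 fold change was 0.0004 (SE 0.13, 95% interval -0.29 to 0.29, adjusted p = 0.999) in Smarcb1-labelled over wild type and -0.09 (SE 0.13, adjusted p = 0.790) in Arid2-labelled over wild type. Glis3 had the lowest count of the 5, with 33.1 to 43.2 CPM in Smarcb1-labelled thyroids, 31.1 to 56.8 CPM in Arid2-labelled thyroids and 27.9 to 39.96 CPM in wild type. Its log2 fold change was 0.15 (SE 0.22, 95% interval -0.35 to 0.65) in Smarcb1-labelled over wild type and 0.34 (SE 0.22, 95% interval -0.15 to 0.84) in Arid2-labelled over wild type. Exact permutation tests over the 3 groups gave p = 0.650 for Hhex and p = 0.529 for Glis3.

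**Figure D3:**
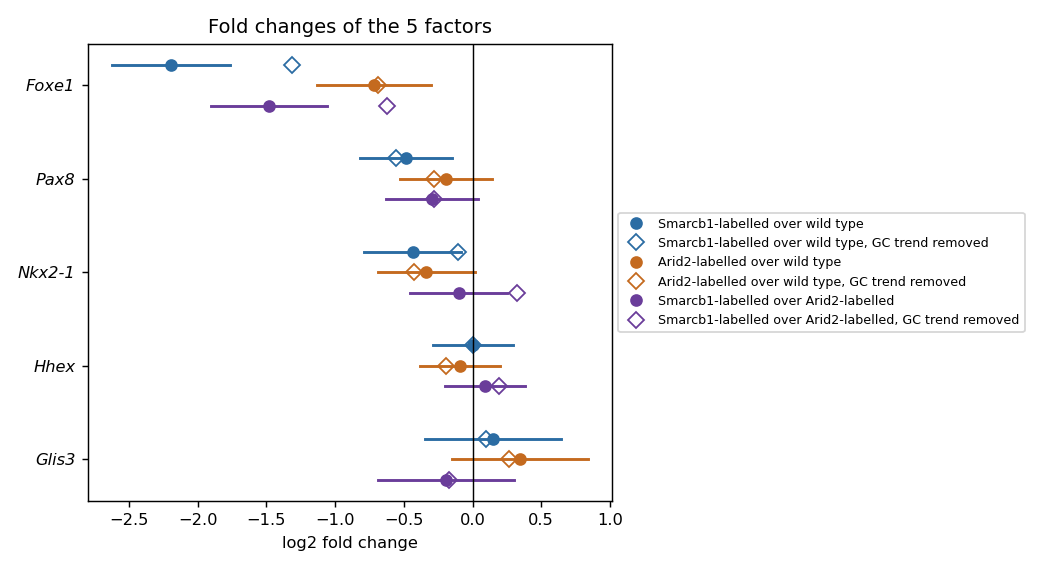
Log2 fold change of each factor with its 95% interval (filled points and lines) and after removal of the GC trend (open diamonds), for Smarcb1-labelled over wild type, Arid2-labelled over wild type and Smarcb1-labelled over Arid2-labelled. The Foxe1 intervals lie below 0 in each comparison, and removal of the trend moves Foxe1 to -1.31 in Smarcb1-labelled over wild type and to -0.62 in Smarcb1-labelled over Arid2-labelled.

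Counted over the 5 factors, 1 was called lower and 0 higher in Smarcb1-labelled over wild type, where 7.9% of all tested genes were called, and 1 was called lower in Smarcb1-labelled over Arid2-labelled, where 16.3% were. In Arid2-labelled over wild type edgeR called 0 of 5, with 1 at an unadjusted p under 0.05, DESeq2 called 1 and limma-voom 0, against 0.556% of all tested genes called by edgeR. Of all genes DESeq2 called 918 there and edgeR 95, and Nkx2-1, at an edgeR p of 0.0597, ranked 2845th of 17079. The median log2 fold change of the 5 was -0.44 in Smarcb1-labelled over wild type and -0.19 in Arid2-labelled over wild type, beside 0.05 and 0.02 over all tested genes.

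Ratios between 2 factors within a library are free of library scaling. For Foxe1 to Pax8 the ratio of read counts was 0.147, 0.201 and 0.155 in Smarcb1-labelled thyroids, 0.366, 0.384 and 0.390 in Arid2-labelled thyroids and 0.490, 0.616 and 0.543 in wild type. These groups do not overlap, and the Arid2-labelled ratios lie within a narrow range. On the log2 scale the ratio differed by -1.72 in Smarcb1-labelled from wild type and by -0.53 in Arid2-labelled from wild type. The same order of groups held for the ratios of Foxe1 to Nkx2-1, Hhex and Glis3, with differences of -1.74, -2.19 and -2.35 in Smarcb1-labelled and of -0.39, -0.62 and -1.04 in Arid2-labelled thyroids. An exact permutation test over the 3 groups gave p = 0.00357 for each of these 4 ratios, and 0.00893 after Benjamini-Hochberg adjustment over the 10 pairs of factors. With the GC trend removed the adjusted p was 0.0179 for each, and the differences were smaller. In Smarcb1-labelled from wild type they were then -0.76, -1.16, -1.31 and -1.40 for Foxe1 to Pax8, Nkx2-1, Hhex and Glis3. In Arid2-labelled from wild type they were -0.41, -0.26, -0.49 and -0.92 in the same order.

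The ratio of Pax8 to Nkx2-1 averaged 1.36 ± 0.241 in Smarcb1-labelled thyroids, 1.51 ± 0.207 in Arid2-labelled thyroids and 1.36 ± 0.126 in wild type (SD, n = 3 each), with an exact adjusted p of 0.646. Pax8 to Hhex averaged 3.68 ± 0.373, 4.76 ± 0.114 and 5.12 ± 0.636 in the Smarcb1-labelled, Arid2-labelled and wild-type libraries (SD, n = 3 each), with an exact adjusted p of 0.0357 that rose to 0.0857 at most when 1 library was left out. The other 4 ratios had exact adjusted p-values of 0.155 for Pax8 to Glis3, 0.188 for Nkx2-1 to Hhex, 0.188 for Nkx2-1 to Glis3 and 0.321 for Hhex to Glis3.

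**Figure D4:**
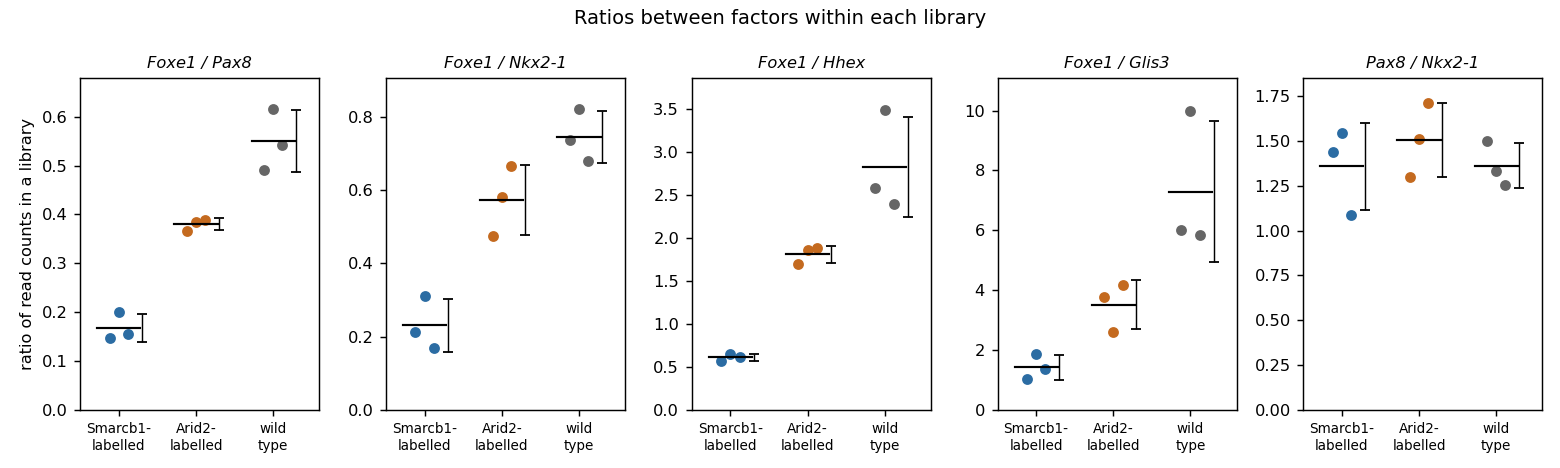
Ratio of the read counts of 2 factors in each library, 1 point per library, with the mean as a line and the SD of 3 libraries as a bar, for Smarcb1-labelled, Arid2-labelled and wild-type thyroids. The ratio of Foxe1 to each other factor is lowest in Smarcb1-labelled thyroids (0.168 on average to Pax8) and highest in wild type (0.550), while Pax8 to Nkx2-1 overlaps.

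Levels between factors were compared per kilobase of annotated exon (all exons merged). In the Smarcb1-labelled libraries the order was Nkx2-1 at 83.4 ± 19.7, Pax8 at 51.6 ± 2.08, Foxe1 at 18.7 ± 3.09, Hhex at 16.9 ± 1.62 and Glis3 at 4.27 ± 0.573 CPM per kb (SD, n = 3). In the Arid2-labelled libraries it was Nkx2-1 at 89.3 ± 2.19, Pax8 at 63.2 ± 10.2, Foxe1 at 52.2 ± 9.95, Hhex at 15.9 ± 2.29 and Glis3 at 4.89 ± 1.46 CPM per kb. In wild type Foxe1 held the second place, after Nkx2-1 at 112.8 ± 8.01 and with 85.7 ± 13.8 CPM per kb, followed by Pax8 at 72.2 ± 10.2, Hhex at 16.9 ± 1.36 and Glis3 at 3.85 ± 0.686. Foxe1 and Pax8 overlapped in wild type and in Arid2-labelled thyroids, and Foxe1 and Hhex overlapped in the Smarcb1-labelled ones. The length used matters for the order: with the longest transcript, of 3.39 kb in place of 6.06 kb for Pax8, Pax8 came first in each group, and Hhex lay above Foxe1 in Smarcb1-labelled thyroids.

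Genes beside each factor and transcripts that overlap it were read next. The neighbours named are the nearest annotated protein-coding genes. Of these, Xpa, a DNA repair factor, had a log2 fold change of -0.25 (adjusted p = 0.296) in Smarcb1-labelled over wild type. In Arid2-labelled over wild type it had -0.23 (adjusted p = 0.514). On the other side of Foxe1, 5830415F09Rik, annotated as Trmo, had -0.33 (adjusted p = 0.167) and -0.05 (adjusted p = 0.889). Gm12446, an antisense transcript that overlaps Foxe1, stood at 57.2, 35.8 and 32.0 CPM in Smarcb1-labelled thyroids, 46.5, 47.9 and 51.4 CPM in Arid2-labelled thyroids and 52.7, 63.1 and 39.7 CPM in wild type. Its log2 fold change was -0.31 (adjusted p = 0.387) in Smarcb1-labelled over wild type, so it was not called where Foxe1 was. Whether the counting used strand is not given in the sources used here, and without it the reads of both cannot be told apart. The same holds for Pax8 and the overlapping Gm13415, and for Glis3 and D930032P07Rik. It also holds for Nkx2-1 and the antisense Gm26973, which was not found among the counted genes. Another transcript within Glis3, 4933413C19Rik, lies on the same strand.

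Around the other factors, Psd4 and Cacna1b flank Pax8, Mbip and Nkx2-9 flank Nkx2-1, Kif11 and Exoc6 flank Hhex, and Rfx3 and Slc1a1 flank Glis3. Of these, Cacna1b, a neuronal calcium channel, was called, lower in Smarcb1-labelled over Arid2-labelled by -1.50 on the log2 scale (SE 0.33, adjusted p = 0.0222), at 0.661, 1.199 and 1.14 CPM against 2.80, 2.27 and 3.40 CPM. Nkx2-9 stayed below the filter, with at most 20 counts in a library. The others were not called in any comparison.

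The 3 genes with the level pattern most like that of each factor were named by the root-mean-square difference of centred log2 CPM over the 9 libraries, among 11971 candidates. For Foxe1 these were Mif, a secreted cytokine (0.172), Tymp, thymidine phosphorylase (0.220), and the zinc-finger gene Zfp771 (0.231), where the median candidate lay at 0.99. Mif averaged 39.2 ± 6.45 CPM in Smarcb1-labelled thyroids, 101.2 ± 6.99 CPM in the Arid2-labelled ones and 146.6 ± 19.4 CPM in wild type (SD, n = 3 each). The transcripts of Mif, Tymp and Zfp771 have 63.5%, 61.2% and 68.7% GC, beside 62.8% in Foxe1. Pax8 was most like Paqr7 (0.079), Rnh1 (0.082) and Fbxo21 (0.085), Nkx2-1 like Sall1 (0.106), Pnmal2 (0.108) and Ptdss2 (0.117), Hhex like Tex261 (0.075), Pla2g15 (0.076) and Lrrc27 (0.076), and Glis3 like Serac1 (0.133), Fam55d (0.151) and Lrrk2 (0.169). Between factors the difference was smallest for Pax8 and Nkx2-1 (0.184) and largest for Foxe1 and Glis3 (1.02).

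Genes of hormone production and of the follicular cell, which these factors serve, were mostly not called by edgeR. Of 19 listed, 17 passed the filter; Slc26a4, the gene of pendrin, had 1 to 27 counts in a library and Tff3 0 to 1. In Smarcb1-labelled over wild type 2.15% of all tested genes were called higher and 5.74% lower. Of the 17, 1 was called higher there and 0 lower, with a median log2 fold change of -0.11. The one gene was Lrp2, a receptor that binds thyroglobulin, at 257.5, 178.3 and 251.2 CPM in Smarcb1-labelled thyroids, against 143.4, 160.4 and 114.5 CPM in wild type (log2 fold change 0.72, adjusted p = 0.0386); the call was kept in 9 of 20 alternatives. It was lost with the GC trend removed (log2 fold change 0.60, adjusted p = 0.129), with the parathyroid covariate (0.52, adjusted p = 0.196), with only the 6 libraries compared, and in 8 of 9 fits without 1 library (all but Smarcb1-labelled replicate 2), at log2 fold changes of 0.59 to 0.83 and adjusted p-values of 0.0562 to 0.124. In Arid2-labelled over wild type 0.234% of all tested genes were called higher and 0.322% lower. Of the 17, 0 were called higher there and 1 lower, with a median of -0.17. That gene was Duoxa1, the maturation factor of the peroxide generator Duox1, at 2.38, 2.94 and 3.56 CPM in Arid2-labelled thyroids, against 11.7, 19.3 and 22.1 CPM in wild type (log2 fold change -2.58, adjusted p = 0.0269). At an unadjusted p under 0.05 edgeR had 2 of the list in Smarcb1-labelled and 5 in Arid2-labelled over wild type. DESeq2 called 2 and 5 in these comparisons, and limma-voom 1 in each. The 5 that DESeq2 called were Cdh16 and Kcnq1, higher, and Slc5a5, Duox1 and Duoxa1, lower. Slc5a5 stood at 104.9, 143.3 and 133.6 CPM in Arid2-labelled thyroids, against 389.0, 533.0 and 478.1 CPM in wild type. In edgeR the log2 fold change was -1.87 for Slc5a5 (adjusted p = 0.0944) and -1.80 for Duox1 (adjusted p = 0.148). The Duoxa1 call ended without any 1 of the 6 libraries compared, at log2 fold changes of -2.80 to -2.39 and adjusted p-values of 0.0530 to 0.123.

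In Smarcb1-labelled over Arid2-labelled, 2 of the 17 were called higher, Duoxa1 (log2 fold change 1.98, adjusted p = 0.0141) and Lrp2 (0.94, adjusted p = 0.0130), and 1 lower, where 6.95% of all tested genes were called higher and 9.32% lower. The lower one was Cdh16, the kidney and thyroid cadherin, with 473.8, 377.4 and 494.7 CPM in Smarcb1-labelled thyroids, against 772.8, 848.6 and 939.6 CPM in Arid2-labelled thyroids (log2 fold change -0.93, adjusted p = 0.00726). At an unadjusted p under 0.05 edgeR had 8 of the 17 in this comparison. Pax8, at an edgeR p of 0.0791 there, ranked 7210th of all 17079 tested genes. DESeq2 called 7 of the 17, 4 higher and 3 lower, where it called 4335 of all genes and edgeR 2779. Limma-voom called the same 3 of the 17 as edgeR. With the GC trend removed, Cdh16 stood at -0.54 (adjusted p = 0.121) and its call ended. The calls of these 3 genes also ended with the parathyroid covariate, at log2 fold changes of 2.24 for Duoxa1 (adjusted p = 0.0662), 0.71 for Lrp2 (adjusted p = 0.102) and -0.90 for Cdh16 (adjusted p = 0.0598). Without Arid2-labelled replicate 3 the calls of Duoxa1 and Lrp2 (log2 fold change 0.87, adjusted p = 0.0635 for Lrp2) ended, that of Duoxa1 also without Arid2-labelled replicate 2 (log2 fold changes of 1.97 to 2.12, adjusted p-values of 0.0522 to 0.0543).

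**Figure D5:**
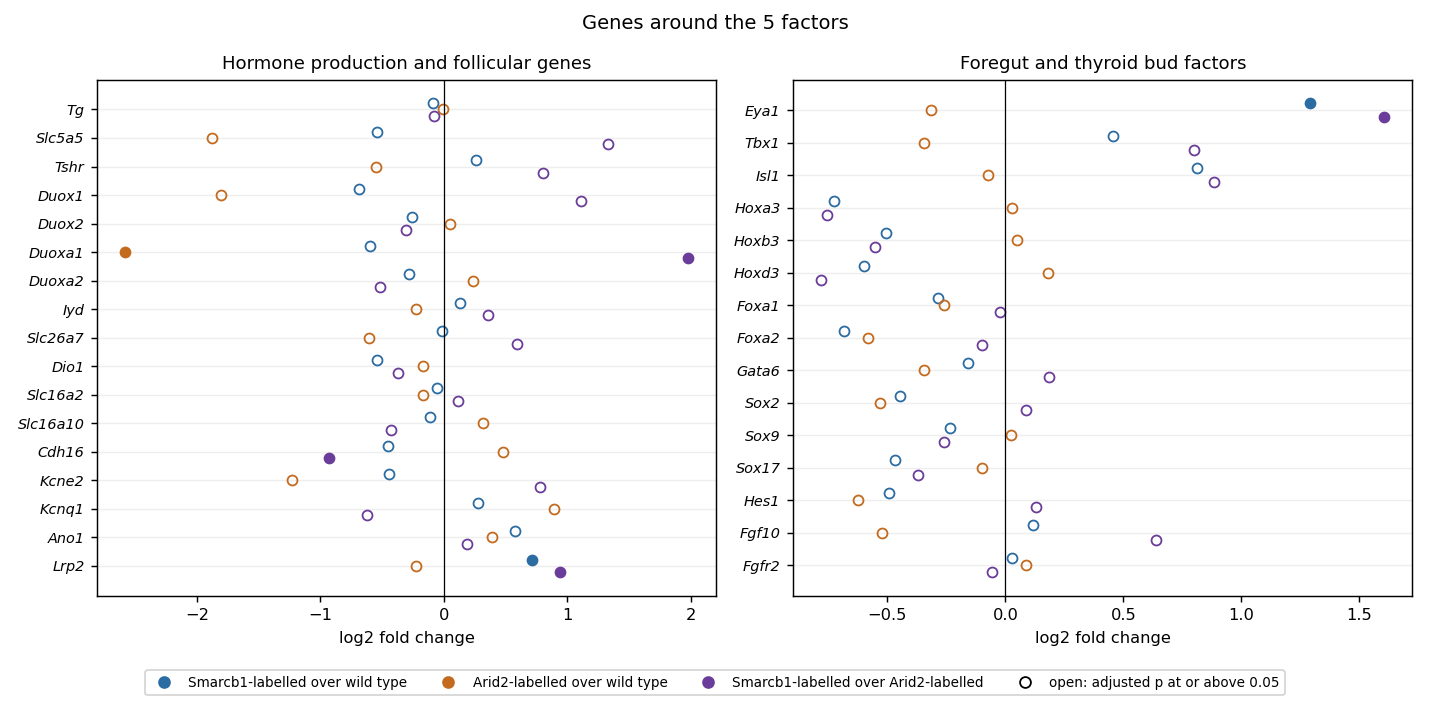
Log2 fold change of the tested genes of hormone production and the follicular cell (left) and of foregut and thyroid bud factors (right), for Smarcb1-labelled over wild type, Arid2-labelled over wild type and Smarcb1-labelled over Arid2-labelled; filled points passed an adjusted p under 0.05. Most points are open, and the filled points on the right are those of Eya1, at 1.29 in Smarcb1-labelled over wild type and 1.61 in Smarcb1-labelled over Arid2-labelled.

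Early factors of the pharyngeal foregut and the thyroid bud included 1 that rose. Of 16 listed, 15 passed the filter, and in Smarcb1-labelled over wild type 1 was called higher and 0 lower, where 2.15% of all tested genes were called higher and 5.74% lower, with a median of -0.28. Eya1, a phosphatase and coactivator of pharyngeal organ development, stood at 23.3, 21.6 and 23.6 CPM in Smarcb1-labelled thyroids, 8.66, 7.65 and 6.20 CPM in Arid2-labelled thyroids and 9.22, 11.7 and 7.18 CPM in wild type. Its Smarcb1-labelled libraries lie together above all others, with log2 fold changes of 1.29 (adjusted p = 0.00950) over wild type and 1.61 (adjusted p = 0.00436) over Arid2-labelled, called in all 20 alternatives. For Arid2-labelled over wild type edgeR called 0 of 15, with 2 at an unadjusted p under 0.05. Of all tested genes edgeR called 0.556% there, and Nkx2-1, at an edgeR p of 0.0597, ranked 2845th of 17079. DESeq2 and limma-voom called 0 of the list each.

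Eya1 also acts in parathyroid development, and parathyroid markers were highest in the same libraries. All 4 of these markers had a positive log2 fold change in Smarcb1-labelled over wild type, with a median of 1.91, none was at 0 counts in every library, and edgeR, limma-voom and DESeq2 each called 0 of 4, with 1 at an unadjusted p under 0.05 in edgeR. Nkx2-1, at an edgeR p of 0.0208 in this comparison, ranked 3218th of all 17079 tested genes. With a covariate of parathyroid markers, Eya1 was at 0.99 (adjusted p = 0.0324) over wild type and at 1.26 (adjusted p = 0.0251) over Arid2-labelled, and was still called in both.

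Of 10 lung genes that Nkx2-1 drives, 9 passed the filter, and 7 of these had at most 32.7 CPM (Scgb1a1) in any library. The others were Abca3, a lipid transporter, at 190.7 to 286.3 CPM in Smarcb1-labelled thyroids, 285.0 to 321.2 CPM in the Arid2-labelled ones and 273.3 to 378.3 CPM in wild type, and Napsa. Sftpa1, a surfactant protein, stood at 2.75, 3.05 and 0.785 CPM in Smarcb1-labelled thyroids, 5.10, 13.1 and 7.63 CPM in Arid2-labelled thyroids and 0.0910, 0.256 and 0.119 CPM in wild type. It was called higher in both over wild type, with log2 fold changes of 3.79 (adjusted p = 0.0139) and 5.76 (adjusted p = 0.0132). Sftpd, another surfactant protein, had 24, 36 and 15 counts in Smarcb1-labelled thyroids (0.610, 0.814 and 0.406 CPM). It had 251, 663 and 323 counts in Arid2-labelled thyroids (2.76, 10.4 and 5.19 CPM). In wild type it had 3, 2 and 1 counts (0.0910, 0.0569 and 0.0297 CPM). Sftpd was called higher in both over wild type (adjusted p = 0.0218 and 0.00834). Of all tested genes, 0.234% were called higher in Arid2-labelled over wild type and 2.15% in Smarcb1-labelled over wild type. Airway markers summed to 0.785 to 5.20 CPM in Smarcb1-labelled thyroids, 23.5 to 61.0 CPM in the Arid2-labelled ones and 1.30 to 1.88 CPM in wild type, all 5 had a positive log2 fold change in Arid2-labelled over wild type and 3 were called higher, none was at 0 counts in every library, and their part in these calls was not tested. Sftpd in Arid2-labelled thyroids was called in all 20 alternatives. The Smarcb1-labelled calls over wild type ended in limma-voom for Sftpa1 (adjusted p = 0.0547) and Sftpd (adjusted p = 0.114). Napsa, an aspartic protease of lung and kidney, was called lower in Smarcb1-labelled over wild type, at 42.0, 105.1 and 79.6 CPM against 198.9, 265.9 and 209 CPM (log2 fold change -1.57, adjusted p = 0.0202). In Smarcb1-labelled over Arid2-labelled 4 of the 9 were called lower, Sftpa1, Sftpb, Sftpd and Napsa, and 0 higher, where 9.32% of all tested genes were called lower and 6.95% higher.

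Several of the lung gene calls lie near the threshold and ended in alternatives in which the log2 fold change kept its direction. With the parathyroid covariate the log2 fold changes in Smarcb1-labelled over wild type were 3.54 for Sftpa1 (adjusted p = 0.0737), 3.07 for Sftpd (adjusted p = 0.105) and -1.49 for Napsa (adjusted p = 0.0902). In Smarcb1-labelled over Arid2-labelled the calls of the 4 genes also ended with this covariate, at log2 fold changes of -2.27 for Sftpa1, -3.23 for Sftpb, -3.60 for Sftpd and -1.91 for Napsa, beside -1.97, -2.99, -3.31 and -2.01 without it. The Sftpb call there also ended with the GC trend removed (log2 fold change -2.52, adjusted p = 0.0603). With only the 6 libraries compared, the Sftpa1 call there ended, as did the Napsa call in Smarcb1-labelled over wild type.

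Leaving out 1 library ended some of them too. In Smarcb1-labelled over wild type, the call of Sftpa1 ended without wild-type replicate 1 or 3 (log2 fold changes of 3.53 to 3.63, adjusted p-values of 0.0528 to 0.0625), that of Sftpd without Smarcb1-labelled replicate 1 or any wild-type library (3.01 to 3.74, adjusted p-values of 0.0537 to 0.0714) and that of Napsa without Smarcb1-labelled replicate 3 or wild-type replicate 1 or 2 (-1.65 to -1.43, adjusted p-values of 0.0559 to 0.0701). In Arid2-labelled over wild type, that of Sftpa1 ended without Arid2-labelled replicate 2 or 3 or wild-type replicate 1 (5.33 to 5.83, adjusted p-values of 0.0558 to 0.0759). In Smarcb1-labelled over Arid2-labelled, those of Sftpa1 and Sftpb ended without Smarcb1-labelled replicate 1 or 3 or Arid2-labelled replicate 2 or 3, and that of Sftpa1 also without wild-type replicate 1 or 3. The log2 fold changes there were -2.16 to -1.53 for Sftpa1 (adjusted p-values of 0.0562 to 0.117) and -2.97 to -2.57 for Sftpb (adjusted p-values of 0.0771 to 0.0988).

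Most close relatives of the factors were nearly silent. Of 11 paralogs, 9 stayed below the filter with at most 20 counts, or 0.326 CPM, in any library, among them Pax2, Pax5, Nkx2-4 and Foxe3. The others were Glis2, which edgeR called in 0 of 3 comparisons (log2 fold change -0.52, adjusted p = 0.0844 in Smarcb1-labelled over wild type, where DESeq2 called it), and Nkx2-2, at 3.41, 4.14 and 10.3 CPM in Smarcb1-labelled thyroids, 21.9, 25.6 and 23.5 CPM in Arid2-labelled thyroids and 7.25, 9.90 and 4.003 CPM in wild type. Nkx2-2 was called lower in Smarcb1-labelled over Arid2-labelled (log2 fold change -1.99, adjusted p = 0.0222), a call that was lost once the GC trend was removed (-1.66, adjusted p = 0.0592), with the parathyroid covariate (-2.42, adjusted p = 0.0715) and without Smarcb1-labelled replicate 1 or Arid2-labelled replicate 2 or 3 (-2.01 to -1.71, adjusted p-values of 0.0621 to 0.0746). In Arid2-labelled over wild type, where its groups did not overlap, its log2 fold change was 1.75 and was not called by edgeR (adjusted p = 0.115) or limma-voom (adjusted p = 0.0614), while DESeq2 called it (1.73, adjusted p = 0.00159). Of 11 partners and cofactors of the factors, 11 were tested, and edgeR and limma-voom called 0 in any comparison. At an unadjusted p under 0.05 edgeR had 4 in Smarcb1-labelled over wild type, 4 in Smarcb1-labelled over Arid2-labelled and 0 in Arid2-labelled over wild type. By edgeR's p, Nkx2-1 at 0.0208 ranked 3218th of all 17079 tested genes in the first of these. Pax8 at 0.0791 ranked 7210th in the second. DESeq2 called 1, 4 and 0 of the list in these comparisons, and 2782, 4335 and 918 of all genes. The smallest edgeR adjusted p-values among the partners and cofactors were 0.0659 for Yap1, 0.0703 for Rb1 and 0.0782 for Nfic, each in Smarcb1-labelled over Arid2-labelled, with log2 fold changes of 0.34, 0.54 and -0.52.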

How the data were processed

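RNA was extracted with TRIzol from frozen mouse thyroid and made into libraries with a TruSeq RNA kit, per the labels' protocols. The values are raw read counts per gene, as whole numbers without normalization, deposited by the authors; STAR 2.4, HTSeq 0.6.1, DESeq2 and mm9 are named in the submitters' processing notes, with no role stated. After TMM scaling and a filter on low counts by group (filterByExpr), edgeR's quasi-likelihood test (version 4.0.16, R 4.3.3) was run on 17079 genes with Benjamini-Hochberg adjustment, in 1 fit of all 9 libraries with 3 group means, and called at an adjusted p under 0.05. Single levels and ratios had exact permutation tests of the F statistic over the 3 groups. GC content came from the longest transcript in a GRCm38 annotation, matched for 97.3% of tested genes; promoters came from RefSeq (GRCm38.p6), where 4 of the 5 factors matched. The edgeR and GC steps were tested on simulated data. Alternatives used DESeq2 1.42.0, limma 3.58.1 (voom), other scalings and filters, a GC trend removed by a spline with 5 degrees of freedom, a covariate of Pth, Gcm2 and Casr, only the libraries compared, and omission of libraries.

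The factors and the gene lists were chosen with earlier results of these data known. Genes named are the 5 factors and the 3 genes most like each (average log2 CPM of at least 1). Also named are the factors' nearest protein-coding neighbours, overlapping transcripts and list members called in any comparison, or otherwise the 3 with the smallest p. Some further list members are named beside these. Some listed genes are not reported here and were left out of the lists, their counts and their medians. The sex markers were chosen after their values were seen. Read counts carry no molecular identifiers, so PCR copies are counted too.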

Additional observations from a re-analysis of the deposited data

How the results depend on the processing

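Foxe1 was called in all 20 alternatives in Smarcb1-labelled over wild type (log2 fold changes of -2.38 to -1.31) and over Arid2-labelled (-1.76 to -0.62), and its value in Arid2-labelled over wild type passed by DESeq2 (-0.73) and with the GC trend removed (-0.69). In Smarcb1-labelled over wild type DESeq2 also called Pax8 (-0.50) and Nkx2-1 (-0.46). Hhex, near 0 there, turned negative with DESeq2 size factors (-0.0148), without a filter (-0.0206), by DESeq2 (-0.0161), by limma-voom (-0.00099), with only the 6 libraries compared (-0.0203) and without both libraries with thymocyte markers (-0.12). Over Arid2-labelled, Nkx2-1 turned to 0.32 with the GC trend removed and Hhex to -0.092 without the thymocyte-marked libraries. The causes of these turns were not tested. No paired analysis was possible because the labels give the groups no shared replicate numbers.

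Leaving out 1 library at a time gave log2 fold changes of -0.0776 to 0.0645 for Hhex and -0.65 to -0.32 for Nkx2-1 in Smarcb1-labelled over wild type, -0.21 to 0.0057 for Hhex in Arid2-labelled over wild type, and -0.0058 to 0.19 for Hhex, -0.31 to 0.011 for Nkx2-1 and -0.38 to 0.0499 for Glis3 in Smarcb1-labelled over Arid2-labelled. The exact p over the 3 groups ran over 0.0464 to 0.143 for Pax8 (lowest without wild-type replicate 3) and 0.00357 to 0.193 for Nkx2-1 (lowest without Smarcb1-labelled replicate 3). The adjusted exact p of the ratios ran over 0.00893 to 0.0857 for Pax8 to Hhex, which ended without Smarcb1-labelled replicate 2, Arid2-labelled replicate 1 or 3, or wild-type replicate 1 or 2, and over 0.0357 to 0.411 for Pax8 to Glis3 (lowest without Arid2-labelled replicate 2).

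The number of genes called, 1349 in Smarcb1-labelled over wild type, 95 in Arid2-labelled over wild type and 2779 in Smarcb1-labelled over Arid2-labelled, was 2782, 918 and 4335 by DESeq2, 486, 201 and 1348 with only the 6 libraries compared, and 414, 230 and 1074 with the GC trend removed. With the parathyroid covariate it was 200 and 149 for Smarcb1-labelled over wild type and over Arid2-labelled. Without both thymocyte-marked libraries it was 2166 in Smarcb1-labelled and 56 in Arid2-labelled over wild type. Without 1 library at a time it ran over 344 to 2538, 5 to 167 and 395 to 4411, with the lowest values without Smarcb1-labelled replicate 3, Arid2-labelled replicate 2 and Arid2-labelled replicate 3. Where 1 library was left out, the remaining 2 of its group shared the spread of all groups. With 3 libraries a group and 6 residual degrees of freedom, the standard errors of the factors' log2 fold changes were 0.13 to 0.22, and each factor had at least 979 counts in a library.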
